A study of Mus musculus with 4 samples.

Results

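A family of 10 genes for proteins that tie actin filaments into bundles was followed: the 3 fascin genes Fscn1, Fscn2 and Fscn3, the espin gene Espn, the villin gene Vil1, the plastin genes Pls1, Pls3 and Lcp1, and the alpha-actinin genes Actn1 and Actn4. They were taken as every probe set whose platform annotation names 1 of these genes and no other, which gave 16 probe sets for all 10 genes, of 45037 mouse probe sets in the table. No probe set naming several genes had to be dropped. The family was put together because Fscn1 was already known to be lower in these knockout arrays, so the differences between genotypes below are a description of the members and were not read as a test of them.

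The samples were whole testes of male mice at 8 weeks of age on a C57BL/6J background, 2 arrays from wild type animals and 2 from Taf7l knockout animals, with the controls described as littermates. Taf7l lies on the X chromosome, is expressed mainly in germ cells and is related to Taf7, a subunit of TFIID, the complex that carries the TATA-binding protein to promoters. The labels do not give the structure of the mutant allele. They number the second knockout array 2 in its title and 1 in its description, so whether the knockout arrays stand for separate animals is not settled, and errors here measure the spread between arrays, which may be technical. The Taf7l probe set had signals of 829 and 818 in the wild type and 80.6 and 72.5 in the knockout. The sources used here do not say where its probes lie relative to the deleted part, so the drop checks the genotype labels only as far as they lie in affected sequence.

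Actin bundlers differ in how they hold filaments and in where they are used. Fascins pack parallel filaments tightly, as in filopodia. Fscn1 is the widely expressed fascin, Fscn2 is known from photoreceptors and hair cells, and Fscn3 is known as the testis fascin. Espin is a bundler of hair cell stereocilia and of the ectoplasmic specialization, the layer of actin bundles through which Sertoli cells hold spermatids and each other. Villin and plastin 1 are bundlers of intestinal microvilli, plastin 3 is expressed in many solid tissues, and Lcp1 encodes the plastin of leukocytes. The alpha-actinins cross-link filaments more loosely and anchor them at adhesion sites.

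The start regions of the fascin genes are shown as sequence only, and their part in the Fscn1 values was not tested. They were chosen with the Fscn1 values known and because the Fscn1 start region holds the letters of a TATA box. Each is the 250 bases before the start of transcription, on the plus strand of GRCm38.p6, from RefSeq. Capitals mark TATAAA, the core of a TATA box, on either strand (TTTATA when it is read from the other strand), and TGACGTCA, the full cAMP response element, a palindrome bound by proteins of the CREB and CREM family. The windows are chr5:142960105-142960354 for Fscn1, chr11:120361284-120361533 for Fscn2 and chr6:28427651-28427900 for Fscn3.
Fscn1: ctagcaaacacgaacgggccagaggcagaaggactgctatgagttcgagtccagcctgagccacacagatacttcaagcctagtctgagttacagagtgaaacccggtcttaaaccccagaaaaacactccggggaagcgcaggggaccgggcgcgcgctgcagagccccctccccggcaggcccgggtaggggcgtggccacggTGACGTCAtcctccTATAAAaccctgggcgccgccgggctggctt
Fscn2: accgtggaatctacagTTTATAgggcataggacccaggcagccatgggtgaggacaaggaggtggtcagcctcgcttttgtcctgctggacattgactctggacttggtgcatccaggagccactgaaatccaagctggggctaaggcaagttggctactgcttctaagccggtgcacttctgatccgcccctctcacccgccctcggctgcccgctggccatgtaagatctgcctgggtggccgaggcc
Fscn3: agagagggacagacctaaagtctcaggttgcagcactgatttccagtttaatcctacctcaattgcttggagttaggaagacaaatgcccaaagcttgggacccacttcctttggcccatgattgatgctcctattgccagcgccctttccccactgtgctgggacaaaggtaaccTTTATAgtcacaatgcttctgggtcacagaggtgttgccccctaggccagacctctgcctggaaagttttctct

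The Fscn1 window held TATAAA in the forward direction, with its first base 31 bases before the start, and TGACGTCA with its first base 45 bases before the start. These motifs did not overlap. In Fscn2 and Fscn3 the same letters of the TATA core stood on the opposite strand, and their runs began 234 and 74 bases before the start. Of the 15 start regions listed for the 10 genes, 3 held TATAAA on either strand, those of the fascins, and 1 held TGACGTCA. Among 32851 mouse start regions of the same length, 12.4% held TATAAA, 1.55% held TGACGTCA, and 39 (0.119%) held both. Within the last 60 bases before the start, 3.92% held TATAAA, 0.764% held TGACGTCA, and 5 start regions held both. The Fscn1 window is 1 of the 5, and the motifs and the 60 bases are not known to have been set before it was seen. Nothing is read from these shares. CCAAT and GGGCGG, the CCAAT box and GC box, were searched as well on both strands, and stood in 33.8% and 32.7% of all start regions. Neither was found in the Fscn1 or the Fscn3 window, while Fscn2 had GGGCGG at 2 places. The start regions of Actn1, Actn4 and the first starts of Espn and Lcp1 held GGGCGG at 2 to 4 places each, and those of Pls3 that lie next to each other held CCAAT. These matches describe letters in a window, and binding was not measured.

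Signals are linear array intensities and were compared as differences of mean log2 signal, knockout minus wild type. Probe sets were tested where their mean over the 4 arrays was at least 45.8, the median over all mouse probe sets, a cut that sets aside the dimmer probe sets and is no detection call. Of the 16 member probe sets, 11 passed this filter, and they covered 8 genes. The other 5 had signals between 3.62 and 13.7 on every array, and Fscn2 and Vil1 had no probe set above the filter. Of the 11, 1 was called lower at a limma adjusted p under 0.05 and 0 higher, and 1 was at least 2-fold apart. Over all 22519 tested probe sets 1.39% were called, 0.941% lower and 0.444% higher, and 0.488% were at least 2-fold apart. The median difference of the 11 was 0.05, against −0.05 over all tested probe sets, and the median size of a difference, whatever its sign, was 0.15 against 0.14. Since the family was chosen on this contrast, nothing is read from these shares.

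**Figure D1:**
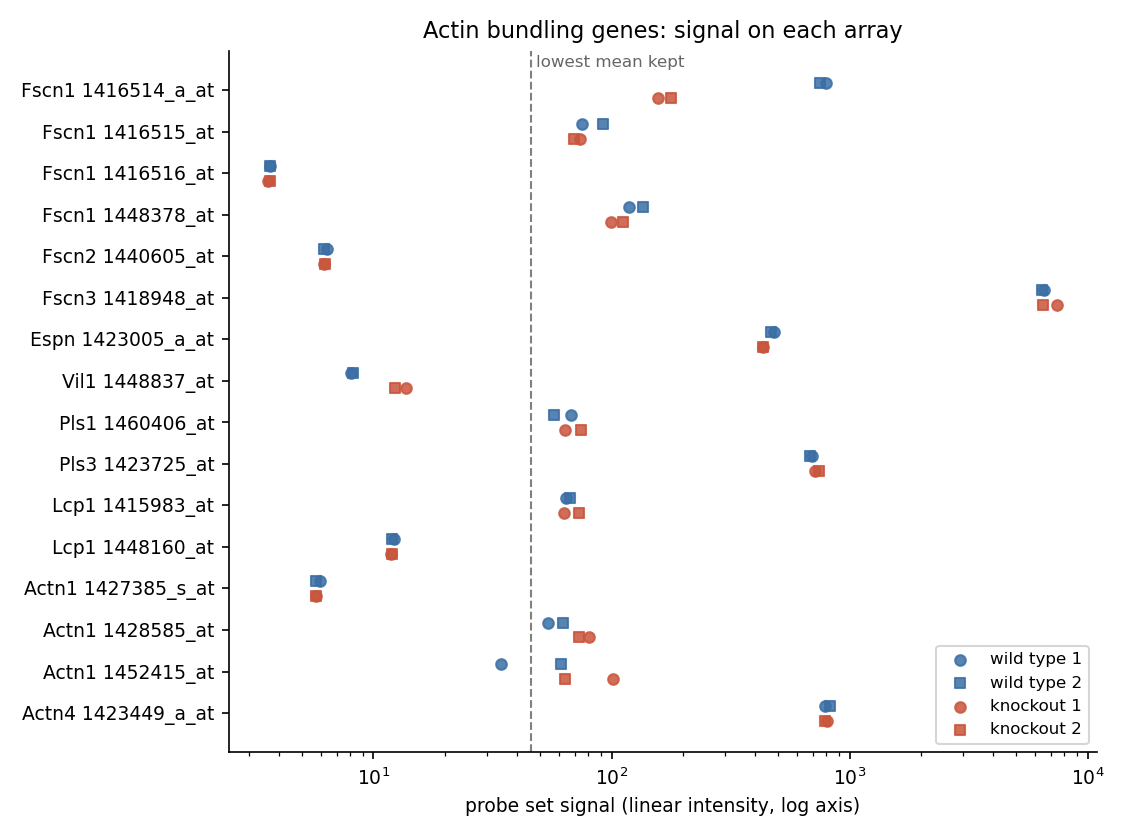
Signal of every member probe set on each of the 4 arrays (linear intensity on a log axis; blue, wild type; red, knockout; circles, replicate 1; squares, replicate 2), with a dashed line at 45.8, the lowest mean that was kept. The wild type and knockout arrays stand far apart for Fscn1 1416514_a_at, at 795 and 749 against 157 and 179, and lie close together for most of the others.

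Fscn1 was measured by 4 probe sets, all annotated to the same RefSeq transcript, and 1 of them fell by a large amount. At 1416514_a_at, a probe set designed against several transcripts of the gene, the wild type arrays had 795 and 749 and the knockout arrays 157 and 179. Both knockout arrays lay far under both wild type arrays. The mean went from 772 ± 32.3 to 168 ± 15.2 (SD, n = 2 each), 4.61-fold lower (log2 −2.21, SE 0.10), which leaves 21.7% of the wild type signal. The arrays of 1 genotype differed from each other by 0.09 on the log2 scale in the wild type and by 0.19 in the knockout. This was the third lowest difference of all tested probe sets, and 2 others lay between −2.2 and −2.1. With any 1 of the 4 arrays left out the difference stayed between −2.30 and −2.11 and was no longer called by limma. In a sample of whole testis, fewer cells that carry the transcript and less transcript per cell cannot be told apart.

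The other Fscn1 probe sets moved little or lay far under the filter. At 1448378_at the wild type arrays had 119 and 135 and the knockout arrays 99.1 and 112, a difference of −0.27 (SE 0.12, and −0.36 to −0.17 with 1 array left out), and the groups did not overlap. At 1416515_at the wild type arrays had 74.9 and 92.5 and the knockout arrays 73.9 and 69.4, a difference of −0.22 (SE 0.13), with wild type replicate 1 and knockout replicate 1 nearly level. That difference was −0.07 without wild type replicate 2 and −0.37 without wild type replicate 1. Neither was called. At 1416516_at every array read between 3.62 and 3.68, far under the filter. The 3 Fscn1 probe sets above the filter therefore share the sign of the difference and not its size. The sources used here do not give their positions along the transcript.

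Fscn3 did not share the fall of Fscn1. Its probe set had 6589 and 6466 in the wild type and 7474 and 6511 in the knockout, so knockout replicate 2 lay between the wild type values and the groups overlapped. The difference was 0.10 (SE 0.08). It was −0.0036 without knockout replicate 1, the array with the highest value, 0.20 without knockout replicate 2, and 0.22 after quantile normalization. Fscn2, the fascin of photoreceptors and hair cells, read between 6.20 and 6.38 on all 4 arrays, far under the filter, and was not tested.

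The espin probe set was slightly lower on both knockout arrays. Espn had 480 and 466 in the wild type and 432 and 432 in the knockout, a difference of −0.13 (SE 0.08), and was not called. The groups did not overlap, as for 7 of the 11 member probe sets (4 lower, 3 higher) and for 55% of all tested probe sets (36.3% lower, 18.7% higher). After quantile normalization the espin difference was −0.07.

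Of the plastins, none was called. Pls3, which is X-linked as Taf7l is, had 693 and 685 in the wild type and 713 and 741 in the knockout, so both knockout arrays were higher, by 0.08 on the log2 scale (SE 0.07), or 0.15 after quantile normalization. Pls1 had 67.6 and 57.2 in the wild type and 63.7 and 74.6 in the knockout, and the groups overlapped (0.15, SE 0.14, and 0.03 to 0.27 with 1 array left out). Lcp1 had 64.3 and 66.8 in the wild type and 62.9 and 73.0 in the knockout at 1415983_at, with both wild type values between those of the knockout (0.05, SE 0.11). Its second probe set, 1448160_at, read between 11.9 and 12.2 on every array. Of 12 leukocyte markers beside Lcp1, 8 were above the filter at their highest probe set. Of these 8, 7 had a higher value in the knockout and Coro1a a lower one (−0.15). None was called, beside 1.39% of all tested probe sets. The summed signal of the 12 was 2592 and 2762 in the wild type and 2949 and 3288 in the knockout. It is mostly Lyz2 and C1qb, and Lyz2 overlapped between genotypes (919 and 975 against 848 and 1207). The defining markers Ptprc and Cd68 were under the filter, at 14.0 or less and 5.46 or less. Both had slightly lower values in the knockout, while Cd14, also under the filter, was slightly higher. Differences under the filter are not read. The part of these cells in the Lcp1 values was not tested.

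Neither alpha-actinin was called. Actn4 had 787 and 830 in the wild type and 801 and 791 in the knockout, which overlap (−0.02, SE 0.07). The value was 0.06 after quantile normalization and 0.017 without wild type replicate 2, so it has no settled direction. Actn1 was higher on both knockout arrays at 2 probe sets. At 1428585_at it had 53.9 and 62.8 in the wild type and 80.3 and 73.2 in the knockout, 1.32-fold higher (0.40, SE 0.12). At 1452415_at it had 34.3 and 61.5 in the wild type and 101 and 63.7 in the knockout (0.81, SE 0.35). Here wild type replicate 2 and knockout replicate 2 were nearly level, and the arrays of 1 genotype differed by 0.84 and 0.67 on the log2 scale. The difference was 0.39 without wild type replicate 1 and 1.23 without wild type replicate 2. The third, 1427385_s_at, read between 5.72 and 5.94 on all arrays.

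The villin probe set read 8.05 and 8.17 in the wild type and 13.7 and 12.3 in the knockout. Both knockout arrays were higher, but all 4 values lie far under the filter, so no fold is given.

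**Figure D2:**
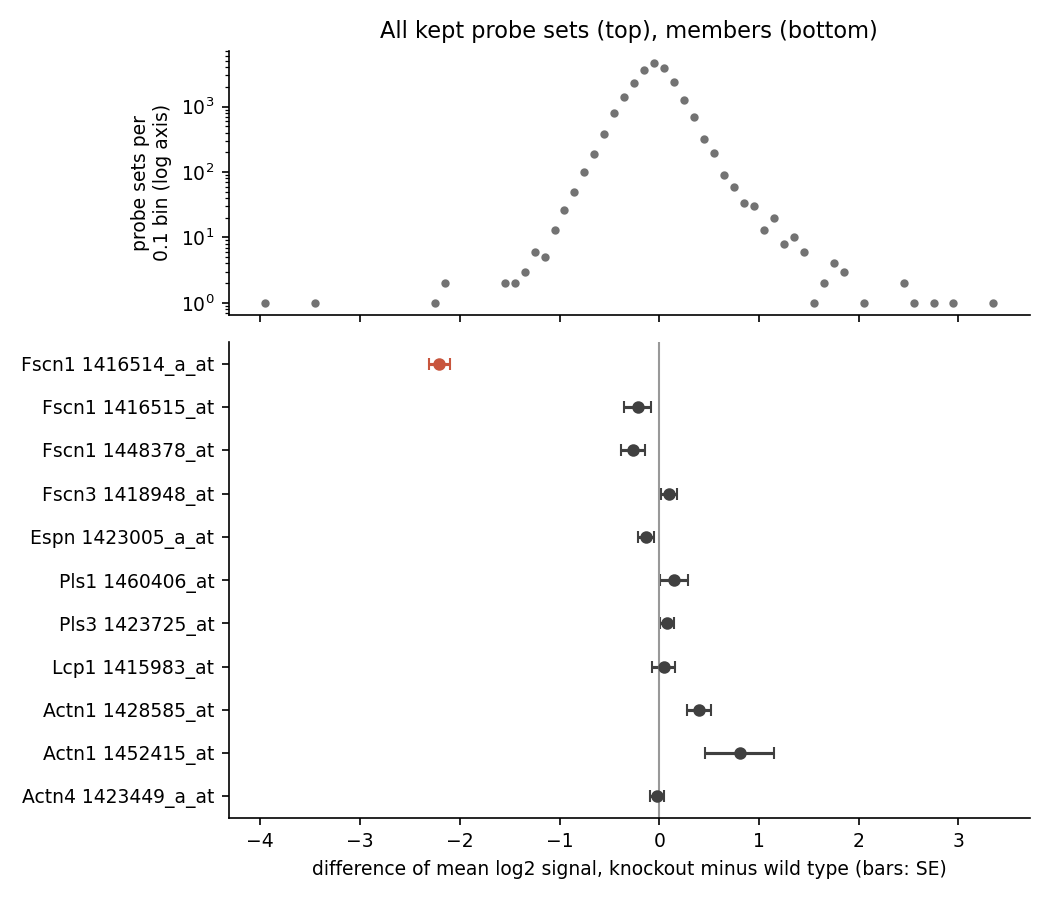
Top, the number of all 22519 tested probe sets in each 0.1-wide bin of the log2 difference, knockout minus wild type (log axis; empty bins are not drawn). Bottom, the difference of each of the 11 member probe sets above the filter with its SE from limma; Fscn1 1416514_a_at (red) stands at −2.21 and the other 10 lie between −0.27 and 0.81.

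The named genes whose pattern over the 4 arrays lay nearest to that of Fscn1 1416514_a_at had smaller differences. Likeness was the Euclidean distance between log2 signals, each taken relative to its own wild type mean, over 19996 probe sets with 1 gene name other than Fscn1. The nearest were Larp6, which encodes an RNA-binding protein (distance 0.97, from 306 and 285 to 99.6 and 106), and Ppargc1a, a coactivator of mitochondrial genes (0.99, from 164 and 143 to 54.4 and 52.1). They were followed by Pcare, a gene of the photoreceptor cilium (1.07), the Polycomb-related gene Sfmbt2 (1.12) and the scavenger receptor gene Msr1 (1.16). Their differences were between −1.52 and −1.39, against −2.21 for Fscn1, a drop that the choice by likeness itself brings about. Within these genes the other probe sets above the filter differed by −0.82 and −0.82 for Ppargc1a and by −0.71 and 0.03 for Msr1. With 4 arrays in 2 groups, nearness mostly reflects the size of the drop. Start regions were listed for 4 of these 5 genes, and none of the 5 windows listed for them held TATAAA or TGACGTCA.

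**Figure D3:**
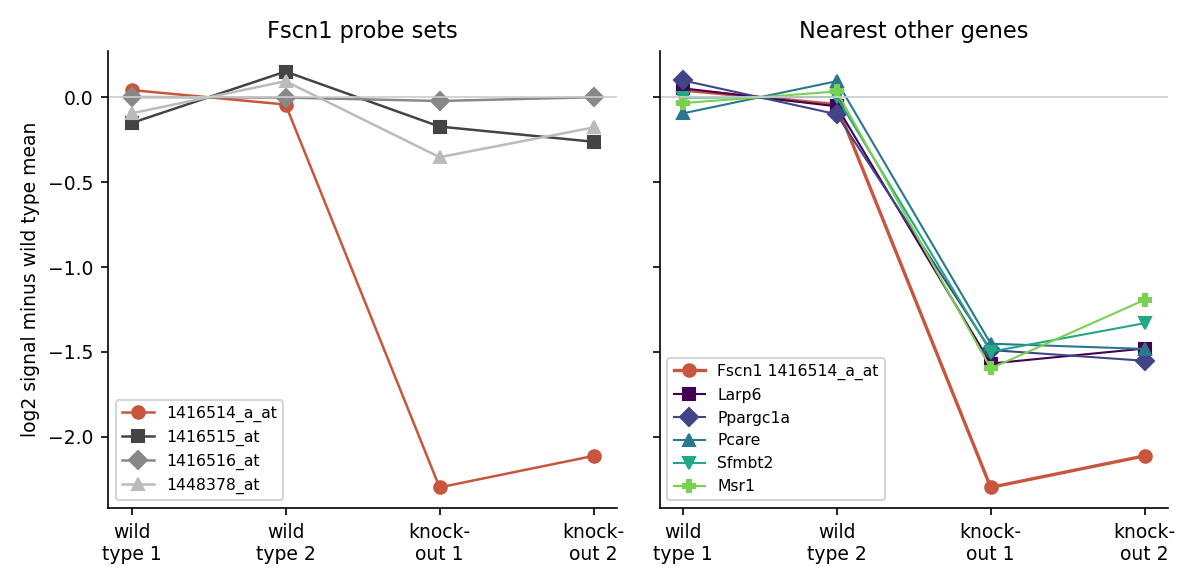
Log2 signal on each array minus the wild type mean of the same probe set, for the 4 Fscn1 probe sets (left) and for Fscn1 1416514_a_at beside the 5 nearest other genes (right); lines only join the arrays of a probe set. Fscn1 1416514_a_at has a mean difference of −2.21, the other Fscn1 probe sets of −0.27 to −0.01, and the 5 nearest genes of −1.52 to −1.39.

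Around the members, 65 other genes on 3 lists stand for the machinery that bundlers work with. Of these, 53 had at least 1 probe set above the filter, 121 probe sets in all. At a limma adjusted p under 0.05, 1 gene was lower (1 of 121 probe sets) and 1 was higher (1 of 121), beside the 0.941% and 0.444% of all tested probe sets.

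Of the 19 measured genes for other cross-linking, capping and severing proteins (filamins, gelsolin relatives, transgelins and the like), 0 were called in either direction by limma, and their 46 probe sets had a median difference of −0.07 (range −0.39 to 0.39). The smallest p-values belonged to Palld, which encodes the actin cross-linker palladin, and Tagln2, a transgelin gene. Palld had 295 and 285 in the wild type and 396 and 365 in the knockout at 1 probe set (0.39, SE 0.09, limma adjusted p = 0.081), while its other probe sets differed by −0.14 and 0.15. The Tagln2 probe sets went opposite ways, at 0.28 and −0.39.

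Of the 16 measured genes of filopodia and microvilli, 1 rose and 15 were not called, and the median of 34 probe sets was −0.04. The gene that rose was Ush1c, which encodes harmonin, a scaffold of stereocilia and of brush border microvilli. It went from 75.9 and 80.8 to 153 and 182, 2.13-fold higher (log2 1.09, SE 0.12, limma adjusted p = 0.047). Both knockout arrays stood well above both wild type arrays. It was no longer called by limma without a variance trend (adjusted p = 0.071), with no filter (0.16) or with any 1 array left out (0.085 to 0.353). Enah, whose product promotes filament growth in filopodia, had 487 and 475 against 289 and 348 at 1431162_a_at (−0.60, SE 0.12, limma adjusted p = 0.066), and differences from −0.33 to 0.03 at its other 4 probe sets. The formin gene Daam1 had 659 and 772 against 523 and 537 at 1 probe set (−0.43, limma adjusted p = 0.087) and differed by −0.09 at the other.

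Of the 18 measured genes of the ectoplasmic specialization and adhesion plaques, 1 fell and 17 were not called, and the median of 41 probe sets was −0.05. Tln1, which encodes talin, the link between integrins and actin, fell from 3125 and 3031 to 2111 and 2190 at 1 probe set, 1.43-fold lower (log2 −0.52, SE 0.06, limma adjusted p = 0.047). Its second probe set, at 297 and 247 against 270 and 280, differed by 0.02. The Tln1 call was lost after quantile normalization (−0.39, limma adjusted p = 0.056), without a variance trend (0.081), with no filter (0.16) and with any 1 array left out (0.085 to 0.353). Nectin3, whose product sits on spermatids opposite the Sertoli cell junction, had 594 and 564 against 402 and 418 at 1421132_at (−0.50, limma adjusted p = 0.055), with −0.49 and −0.46 at 1421133_at and 1457257_x_at and none of these called. At its other 3 probe sets it was at −0.09, −0.03 and 0.04. By far its highest signals were among these. They were 28103 and 29751 against 26658 and 30071 at 1423331_a_at, and 19696 and 19281 against 19279 and 20959 at 1448673_at. Pxn, the paxillin gene, was lower on both knockout arrays at each of its 3 probe sets, by 0.29, 0.47 and 0.74 on the log2 scale (smallest limma adjusted p = 0.063).

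**Figure D4:**
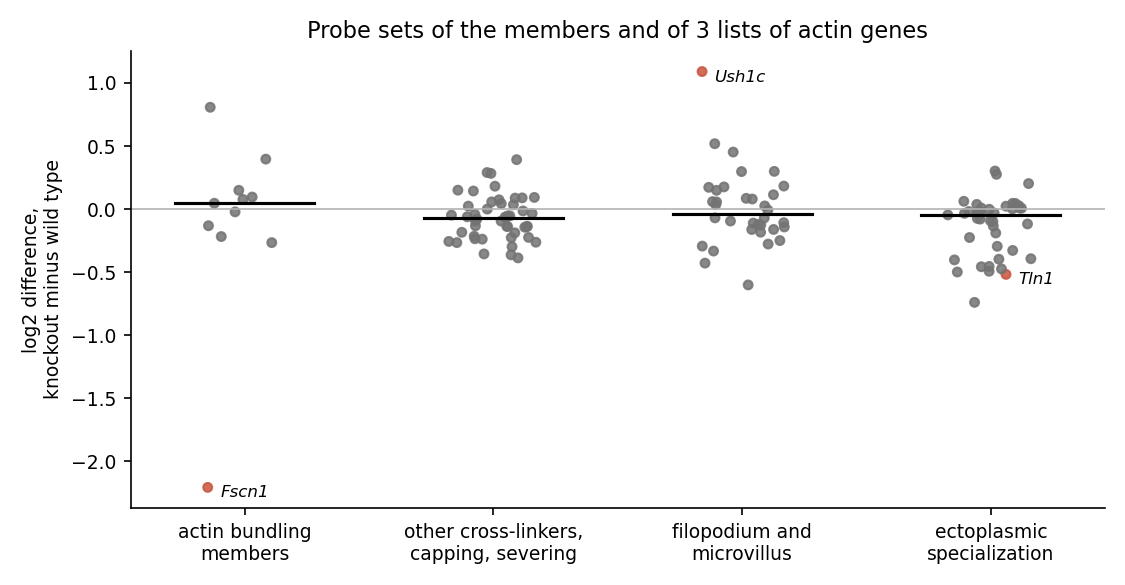
Log2 difference, knockout minus wild type, of each tested probe set of the members and of the 3 lists (points, spread sideways at random; red, called by limma at an adjusted p under 0.05; black lines, medians). Medians lie between −0.07 and 0.05, and the called points are Fscn1 at −2.21, Ush1c at 1.09 and Tln1 at −0.52.

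Markers of testis cells showed what the samples held. The 7 markers of spermatocytes and spermatids were all above the filter, 5 of them with a lower value in the knockout (median −0.02), and their summed signal was 320080 and 324185 in the wild type and 307907 and 309910 in the knockout. Among them Hspa2 (−0.35), Acrv1 (−0.30) and Tnp1 (−0.17) did not overlap between genotypes, the rest overlapped, and none was called. Over all tested probe sets, the groups did not overlap for 36.3% in the lower direction and for 18.7% in the higher. Of 6 Sertoli cell markers above the filter 5 had a higher value (median 0.05), and the sum of 34504 to 37534 against 40500 to 45878 in the knockout is mostly Clu. The 4 measured Leydig cell markers were all higher, with sums of 15805 to 16079 and 19892 to 20236 that are mostly Cyp17a1. Cyp17a1 was called higher, close to the threshold (limma adjusted p = 0.0496). Sums of the 5 myoid markers were 9719 to 10230 and 9853 to 10108, mostly Actg2, and none of 5 endothelial markers was above the filter. Of the epithelial markers Krt8 was called higher (0.99, limma adjusted p = 0.048), while Epcam had a lower value (−0.21, not called). The list's sum was 2391 to 2571 and 2333 to 2515 and is mostly Epcam. Krt18, Krt19 and Cdh1 were under the filter. Krt18 read 18.7 and 16.3 in the wild type and 12.3 and 12.35 in the knockout, and Krt19 and Cdh1 overlapped between genotypes. Epididymis markers summed to 9110 and 10596 in the wild type and to 10500 and 16699 in the knockout, sums that are mostly Lcn2. Cuzd1 had 117 and 129 in the knockout against 192 and 436 in the wild type (not called). Lcn5 and Adam7 were under the filter. Adipocyte markers ranged from 844 to 3968 in the wild type and from 945 to 1653 in the knockout. Their part in the members' values was not tested. The beta-actin control, whose 3′ signal over its 5′ signal is a sign of RNA quality, gave ratios of 2.09 and 1.999 in the wild type and 2.42 and 2.18 in the knockout, and Gapdh went the other way, at 1.04 and 0.990 against 0.927 and 0.938. The part of RNA integrity in the differences was not tested.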

How the data were processed

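The arrays are Affymetrix, and the authors deposited 1 linear intensity (probe set signal) per probe set and array. MAS5 is named for making it, per the submitters' processing notes, and its version and scaling target are not given in the sources used here. Whether a further normalization was applied is not settled by the values: array medians were 45.2 to 45.7 and lowest signals 1.72 to 1.73, while means after trimming 2% at each end were 511 and 511 in the wild type and 467 and 483 in the knockout. Folds are relative to that unknown scaling. The 64 control probe sets were left out. Of 45037 mouse probe sets, 34945 carried 1 gene symbol, 932 several and 9160 none. Symbols were updated through RefSeq (GRCm38.p6), where 34741 matched, and that table and the start regions were used only for names, chromosomes and sequence.

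Signals were taken to log2 with no offset and no further normalization. Probe sets with a mean of at least 45.8 (22519) were fitted with limma 3.58.1 in R 4.3.3 (lmFit, eBayes with a variance trend, genotype as the only term, two-sided), with Benjamini-Hochberg adjustment over all of them. Degrees of freedom were 2 residual and 3.17 prior, and each SE therefore draws on other probe sets of like mean signal as well as on its own arrays. So few arrays limit what a test can show. The smallest two-sided p that an exact permutation test of 2 against 2 arrays can give is 0.333, whatever the spread. The procedure was tested on simulated data with normal errors and variances drawn from the prior fitted here. Such data share the assumptions of the fit, so they cannot show whether these hold for the arrays.

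The members, lists and tests were chosen with earlier results of these data known. Every member probe set is named. From the lists, genes with a call are named, plus the 2 per list with the smallest p among the rest, and the 5 genes nearest to Fscn1. The alternatives changed the scaling (quantile, median), the offset (16), the filter (none, 75th percentile), the eBayes prior (no trend, robust), added the replicate number as a block, or left out each array.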

Additional observations from a re-analysis of the deposited data

How the results depend on the processing

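The Fscn1 1416514_a_at difference kept its direction and size under all 12 alternatives, at −2.10 with an offset of 16 and from −2.30 to −2.11 with 1 array left out, but with no filter (−2.21) and with any 1 array left out it was no longer called by limma. The number of member probe sets called was then 0 (3 by unadjusted p under 0.05 with no filter, and 1 to 3 with 1 array left out). Over all probe sets 312 were called, 32.1% of them higher. The count was 148 after quantile normalization (61.5% higher) and 646 after median centring (22.8% higher). It was 2375 with the 75th percentile filter (18.2% higher) and 0 with no filter (6192 by unadjusted p under 0.05). Without a variance trend it was 36 (69.4% higher). The main direction of the calls thus changed with the processing. With any 1 array left out it was 0, with 3084 to 5500 by unadjusted p. Of the listed genes that are not members, 2 were called, against 1 after quantile normalization, 9 with the 75th percentile filter, and 0 without a variance trend (19 by unadjusted p), with no filter (21) or with any 1 array left out (14 to 17). The cause of these shifts was not tested. In the last case each fit also had fewer arrays.

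With the replicate block 541 probe sets were called, the Fscn1 difference was −2.21 and the member call did not change. The numbers are not known to pair the arrays, and the correlation of same-numbered deviations was 0.032.

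The sign turned only for small differences that were not called. After quantile normalization these were Actn4 (0.061), Enah 1424800_at (0.021), and Nectin3 1417319_at (0.014) and 1423331_a_at (0.048). With 1 array left out at a time the differences ran from −0.0036 to 0.196 for Fscn3, from −0.061 to 0.154 for Lcp1 1415983_at and from −0.061 to 0.017 for Actn4. They ran from −0.410 to 0.138 for Palld 1433768_at, from −0.015 to 0.316 for Palld 1440693_at, from −0.195 to 0.055 for Enah 1424800_at and from −0.034 to 0.085 for Enah 1424801_at. They ran from −0.109 to 0.156 for Tln1 1448402_at, from −0.117 to 0.057 for Nectin3 1423331_a_at and from −0.015 to 0.105 for Nectin3 1448673_at. Whether signals under 45.8 stand above background was not tested, so differences of Fscn2, Vil1 and the dimmest Fscn1, Lcp1 and Actn1 probe sets are not read.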

Other observations

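Besides Fscn1, 4 genes had a start region with both TATAAA and TGACGTCA within the last 60 bases before the start: Errfi1, Gm5485, Meg3 and Tubb2a. They were looked up after the Fscn1 values were seen. Errfi1 encodes an inhibitor of the EGF receptor, Tubb2a a beta-tubulin, and Meg3 is an imprinted noncoding RNA. The 9 probe sets of 3 of these genes above the filter differed by −0.16 to 0.21 on the log2 scale. Of these 9, 0 were called by limma, beside 1.39% of all tested probe sets, and nothing is read from so few. The Errfi1 probe sets had 321 and 312 in the wild type and 356 and 277 in the knockout, and 370 and 339 against 297 and 374. The Tubb2a probe set had 416 and 467 against 356 and 437. The groups overlapped at each of these. The single Gm5485 probe set read 11.5 to 11.9 on all arrays.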
